A study of Homo sapiens with 6 samples.

Results

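The 10 genes described here encode the beta-1,4-galactosyltransferases B4GALT1 to B4GALT7, the beta-1,3-galactosyltransferase B3GALT6 and the N-acetylglucosaminyltransferases B3GNT2 and B3GNT5. All probe sets annotated to 1 of these symbols alone were taken, which gave 28 of the 54675 probe sets on the array and 10 of 19775 genes named there. The genes were picked with their silenced-against-control values already known, among them lower B4GALT1, B4GALT5 and B3GNT5 signals, so those differences are described without a test.

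Gene expression was measured on 6 Affymetrix arrays in 2 human leukemia lines, Jurkat (T cell acute lymphoblastic leukemia) and K562 (chronic myeloid leukemia with erythroid features). In each line 1 array carried control cells, 1 carried cells in which ZFX, a zinc finger transcription factor encoded on the X chromosome, was silenced by a lentiviral hairpin labelled 381, and 1 carried cells silenced by a hairpin labelled 1012. Infected cells were sorted by fluorescence, and each array was hybridised with pooled RNA of 3 replicates. The spread between arrays is therefore not a spread between cultures, and no group has more than 2 arrays. The control is described both as a control hairpin vector (shNC) and as normal cells, so differences to control cannot be told apart from effects of infection and sorting. Both silenced arrays of a line are set against the same control array, and agreement between them is not replication. In such bulk RNA fewer cells with a transcript and less of it per cell cannot be told apart.

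Beta-1,4-galactosyltransferases sit in the Golgi and transfer galactose from UDP-galactose to a terminal sugar. B4GALT1 to B4GALT4 act mainly on N-acetylglucosamine and make N-acetyllactosamine, the unit that B3GNT2 extends into polylactosamine chains on glycoproteins. B4GALT5 and B4GALT6 add galactose to glucosylceramide to make lactosylceramide, the branch point of glycosphingolipids, and B3GNT5 acts on lactosylceramide to open the lacto and neolacto series. B4GALT7 and B3GALT6 add the galactoses of the linker that joins glycosaminoglycan chains to proteoglycan core proteins.

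The promoters of the genes whose brightest probe set was furthest below control, and of B4GALT3, which holds a ZFX-type word at its start, are shown with 2 words searched in them. No searched word is common to all the windows shown. RefSeq's table (GRCh38.p14) held windows of 300 bases for 9 of the 10 genes, in 13 start sites; the first listed start of each gene is used, from 250 bases before it to the first 10 after it. Capitals mark the word GGCGGG, on either strand, and the palindrome AGGCCT, the core of the motif known for ZFX.
B3GNT5 (chr3:183253003-183253262, plus strand): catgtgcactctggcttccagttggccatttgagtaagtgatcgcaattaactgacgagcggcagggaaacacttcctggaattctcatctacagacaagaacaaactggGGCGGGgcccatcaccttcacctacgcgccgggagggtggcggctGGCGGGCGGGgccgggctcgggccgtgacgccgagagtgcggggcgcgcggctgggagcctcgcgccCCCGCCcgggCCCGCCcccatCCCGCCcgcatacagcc
B4GALT1 (chr9:33167327-33167586, minus strand): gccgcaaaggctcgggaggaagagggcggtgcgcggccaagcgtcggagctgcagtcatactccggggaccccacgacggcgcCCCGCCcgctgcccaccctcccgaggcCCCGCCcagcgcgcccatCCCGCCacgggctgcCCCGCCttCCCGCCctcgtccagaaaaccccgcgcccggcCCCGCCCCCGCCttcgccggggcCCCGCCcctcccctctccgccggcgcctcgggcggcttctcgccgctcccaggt
B4GALT5 (chr20:49713869-49714128, minus strand): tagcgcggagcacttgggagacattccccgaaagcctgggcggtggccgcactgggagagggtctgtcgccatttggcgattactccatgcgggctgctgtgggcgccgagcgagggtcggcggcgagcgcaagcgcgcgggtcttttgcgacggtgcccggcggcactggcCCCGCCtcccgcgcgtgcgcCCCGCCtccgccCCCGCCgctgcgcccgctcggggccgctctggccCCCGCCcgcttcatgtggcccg
B4GALT3 (chr1:161177959-161178218, minus strand): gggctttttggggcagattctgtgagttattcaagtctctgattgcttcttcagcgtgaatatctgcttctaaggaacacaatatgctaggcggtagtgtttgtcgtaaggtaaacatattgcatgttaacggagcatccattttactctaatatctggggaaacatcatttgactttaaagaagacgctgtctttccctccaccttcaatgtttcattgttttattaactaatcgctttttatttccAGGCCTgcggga
All 9 genes held a GGCGGG word in at least 1 window, in 10 of 13 windows, against 45.0% of 35116 windows in the table. The AGGCCT word was found in 3 of 13 windows, of B4GALT3, B4GALT7 and B3GNT2, against 10.9% of all windows. In the B4GALT3 window it begins 2 bases before the start, in B4GALT7 22 bases before it. None of the 13 windows held TATAAA, against 11.5% of all windows. The windows shown are GC-rich for B3GNT5 (69.0%), B4GALT1 (78.3%) and B4GALT5 (77.3%), against a median of 58.7%, while that of B4GALT3 has 41.3% GC and no GGCGGG. The other B4GALT3 start has 66.3% GC, holds GGCGGG and lacks AGGCCT. These matches describe the windows and show no binding.

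The 6 arrays had 2% trimmed mean signals of 500.07 or 500.08. All 8 T cell markers were higher on every Jurkat array than on every K562 array, with summed signals of 54738 to 59265 against 1120 to 1827. Of 9 erythroid markers 5 had a probe set of their own, and 4 of these were higher on every K562 array, with sums of 39466 to 56903 against 131 to 176. The 4 ZFX probe sets read between 23.8% and 67.6% of control on silenced Jurkat arrays and between 19.8% and 56.4% on silenced K562 arrays. For 26 probe sets of 15 tissue-restricted genes that neither line should express, the median signal was 11.05 and the 95th percentile 67.7. These values are a guide to the signal of unexpressed genes. The heart troponin gene TNNI3 was an exception, at 1390 to 2216 in K562 cells. SFTPC also read above 67.7, at 93.5 to 137 in K562 cells and up to 77.2 in Jurkat cells. Differences are given as log2(signal + 16.9), and 17 of the 28 probe sets passed a filter at a mean log2 value equal to a signal of 54.4.

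**Figure D1:**
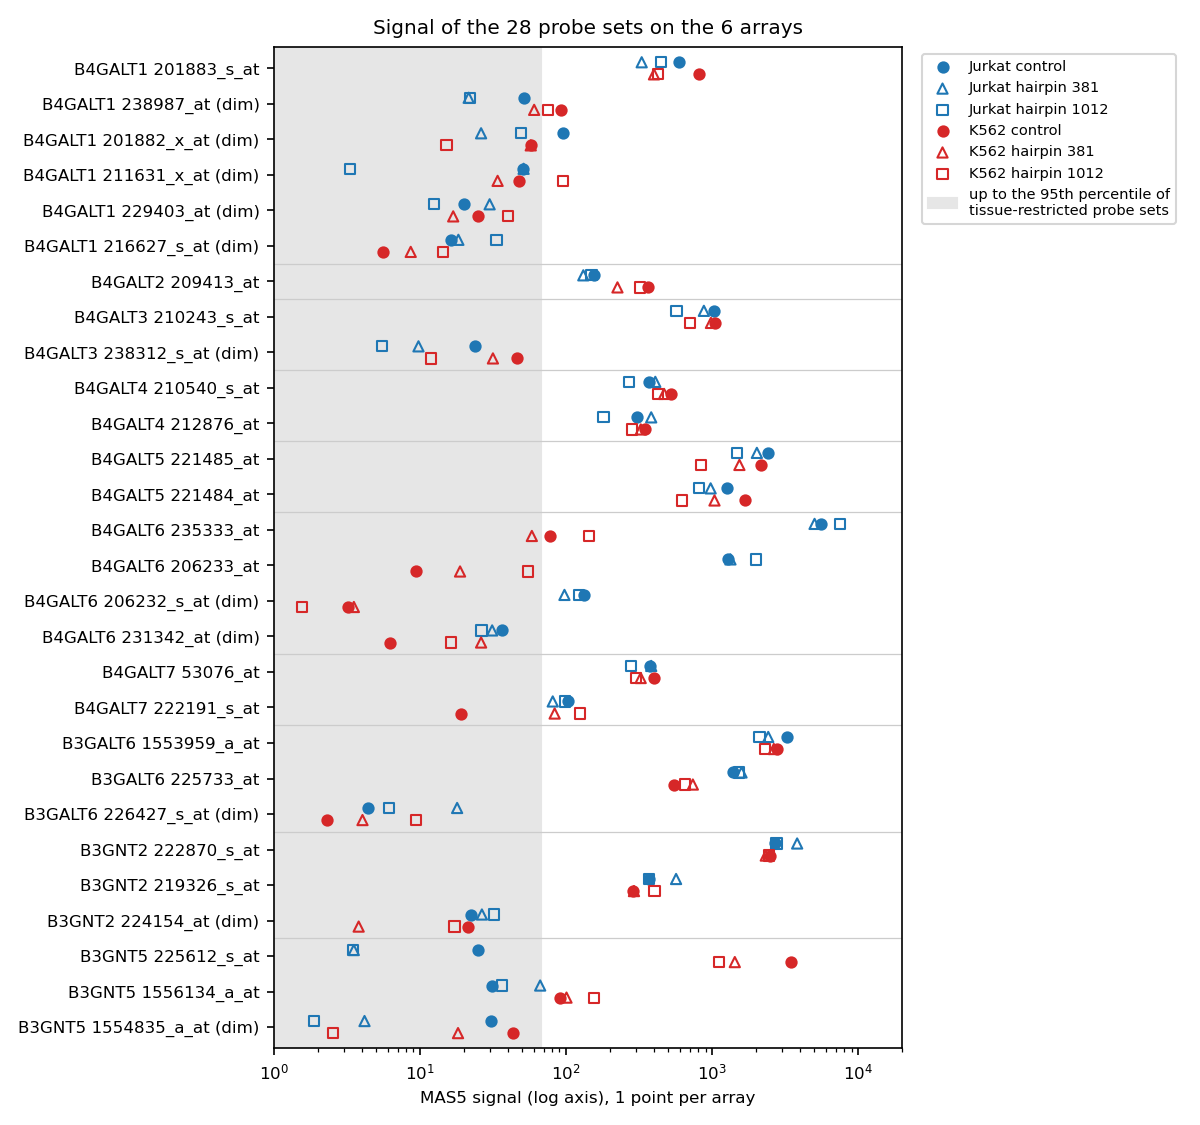
MAS5 signal (log axis) of the 28 probe sets on the 6 arrays, 1 point per array, with Jurkat in blue and K562 in red; dim marks probe sets that did not pass the filter, and the grey band ends at 67.7. B4GALT6 lies far to the right in Jurkat cells and B3GNT5 225612_s_at in K562 cells, while most other bright probe sets overlap between the lines.

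B4GALT1, which makes N-acetyllactosamine on glycoproteins and joins alpha-lactalbumin in lactose synthase, had 6 probe sets, of which 1 passed the filter. That probe set, 201883_s_at, read 594 for the Jurkat control, 329 under 381 and 446 under 1012, and 810 for the K562 control, 399 under 381 and 426 under 1012. All 4 silenced signals lay below both control signals, at 55.4% and 75.2% of control in Jurkat and 49.3% and 52.6% in K562 cells. The mean log2 difference was -0.78 ± 0.26 (SD, n = 4 arrays). Of the other 5 B4GALT1 probe sets 2 also lay below control on all 4 arrays, by means of -0.60 for 238987_at and -0.84 for 201882_x_at, and 1 lay above it on all 4, by 0.33 for 216627_s_at, while 211631_x_at and 229403_at were mixed. These 5 read at most 95.6 on any array, so most of their signals were in the range of unexpressed genes. Probe sets whose names end in _x_at hold probes that can bind other transcripts.

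B4GALT2, a second N-acetyllactosamine synthase, has a single probe set. It read 154 for the Jurkat control, 131 under 381 and 149 under 1012, and 365 for the K562 control, 224 under 381 and 319 under 1012. All silenced signals were below their control, by a mean log2 difference of -0.27 ± 0.27 (SD, n = 4), and with hairpin 1012 in Jurkat cells the signal stayed at 96.7% of control.

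B4GALT3, which also makes N-acetyllactosamine on glycoproteins, read 1031 for the Jurkat control, 877 under 381 and 569 under 1012 at probe set 210243_s_at. Its K562 signals were 1049 for the control, 980 under 381 and 702 under 1012. The lower value came with hairpin 1012 in both lines, and the mean log2 difference was -0.43 ± 0.34 (SD, n = 4). The dim probe set 238312_s_at was also below control on all 4 arrays, at signals of 46.1 or less.

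B4GALT4, which prefers sulfated N-acetylglucosamine, was not on one side of control. Probe set 210540_s_at read 370, 408 and 271 in Jurkat cells for control, 381 and 1012, and 519, 468 and 426 in K562 cells. Probe set 212876_at read 304, 382 and 180 on the Jurkat arrays, and 347, 324 and 282 on the K562 arrays, in the same order. Both were above control with hairpin 381 in Jurkat cells and below it on the other 3 silenced arrays, and their means were close, at -0.18 ± 0.24 and -0.19 ± 0.42 (SD, n = 4).

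The lactosylceramide synthase gene B4GALT5 had 2 bright probe sets that lay on the same side of control. Probe set 221485_at read 2394 for the Jurkat control, 2021 under 381 and 1479 under 1012, and 2142 for the K562 control, 1535 under 381 and 837 under 1012. Probe set 221484_at read 1263, 975 and 813 in Jurkat cells for control, 381 and 1012, and 1666, 1036 and 620 in K562 cells. Every silenced signal was below its control, and hairpin 1012 gave the lowest signal in both lines, down to 39.1% and 37.2% of control in K562 cells. Mean log2 differences were -0.69 ± 0.47 and -0.77 ± 0.44 (SD, n = 4).

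B4GALT6, the paralog of B4GALT5 with the same reaction, read highest with hairpin 1012 at both probe sets that passed the filter. Probe set 235333_at read 5552 for the Jurkat control, 5020 under 381 and 7460 under 1012, against 77.9, 58.2 and 144 in K562 cells. Probe set 206233_at read 1276, 1333 and 1992 on the Jurkat arrays, and 9.44, 18.8 and 55.0 on the K562 arrays, in the same order. With hairpin 381 the first probe set was below control in both lines and the second above it, and the mean log2 differences were 0.18 ± 0.51 and 0.65 ± 0.59 (SD, n = 4). The K562 signals of 206233_at lay in the range of unexpressed genes, and the 583% of control with hairpin 1012 there is a ratio of dim signals. The other 2 probe sets did not pass the filter: 206232_s_at read 97.3 to 133 on Jurkat arrays and 1.56 to 3.52 on K562 arrays, and 231342_at read at most 36.6 on any array.

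B3GNT5, which opens the lacto series from lactosylceramide, had the lowest mean difference of the 17 probe sets at 225612_s_at. Its signal was 3486 for the K562 control, 1428 under 381 and 1108 under 1012, or 41.0% and 31.8% of control. On Jurkat arrays the same probe set gave 25.03 for the control, 3.51 under 381 and 3.46 under 1012, all within the range of unexpressed genes. The log2 differences were -1.28 and -1.64 in K562 cells and -1.04 with each hairpin in Jurkat cells, and the Jurkat values compare signals near the added constant. Their mean of -1.25 ± 0.28 (SD, n = 4) was -0.90 with a constant 4 times larger and -1.70 with one 4 times smaller. The second B3GNT5 probe set that passed, 1556134_a_at, lay above control on all 4 arrays, with signals of 31.1, 66.4 and 36.4 on the Jurkat arrays, and 90.2, 101 and 156 on the K562 arrays (control, 381, 1012). Its mean was 0.44 ± 0.35, which is 1.69 above that of 225612_s_at. The dim probe set 1554835_a_at was below control on all 4 arrays, with control signals of 30.8 and 43.4 and silenced signals of 18.2 or less. The 3 probe sets thus fall on both sides of control, and only 225612_s_at was bright, in K562 cells.

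B3GNT2, which extends polylactosamine chains, read 2670, 3815 and 2755 on the Jurkat arrays, and 2502, 2327 and 2446 on the K562 arrays (control, 381, 1012) at 222870_s_at. The signal with hairpin 381 in Jurkat cells stood above the other 5 arrays. Probe set 219326_s_at read 367, 566 and 368 on the Jurkat arrays, and 286, 291 and 402 on the K562 arrays, and was above control on all 4 arrays, though at only 100.1% of control with 1012 in Jurkat cells. Mean log2 differences were 0.10 ± 0.28 and 0.27 ± 0.31 (SD, n = 4). The dim probe set 224154_at read at most 32.0 and was mixed.

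The linker galactosyltransferase gene B4GALT7 read 373, 382 and 277 on the Jurkat arrays, and 397, 324 and 301 on the K562 arrays (control, 381, 1012) at 53076_at, below control on 3 of 4 arrays (mean -0.26 ± 0.20, SD, n = 4). Its second probe set, 222191_s_at, read 102, 80.9 and 98.2 on the Jurkat arrays, and 19.0, 83.4 and 124 on the K562 arrays. The control K562 array was the low one there, and the K562 differences of 1.48 and 1.97 are both set against it.

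B3GALT6, which adds the next linker galactose, had 2 bright probe sets on opposite sides of control. Probe set 1553959_a_at read 3237, 2418 and 2107 on the Jurkat arrays, and 2789, 2642 and 2296 on the K562 arrays (control, 381, 1012), below control on all 4 arrays (mean -0.35 ± 0.23, SD, n = 4). Probe set 225733_at read 1380, 1587 and 1518 on the Jurkat arrays, and 548, 737 and 651 on the K562 arrays, above control on all 4 (mean 0.25 ± 0.12). Both were far above the range of unexpressed genes, and the signs were opposite on each of the 4 arrays. The dim probe set 226427_s_at was above control on all 4, at signals of 17.9 or less.

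**Figure D2:**
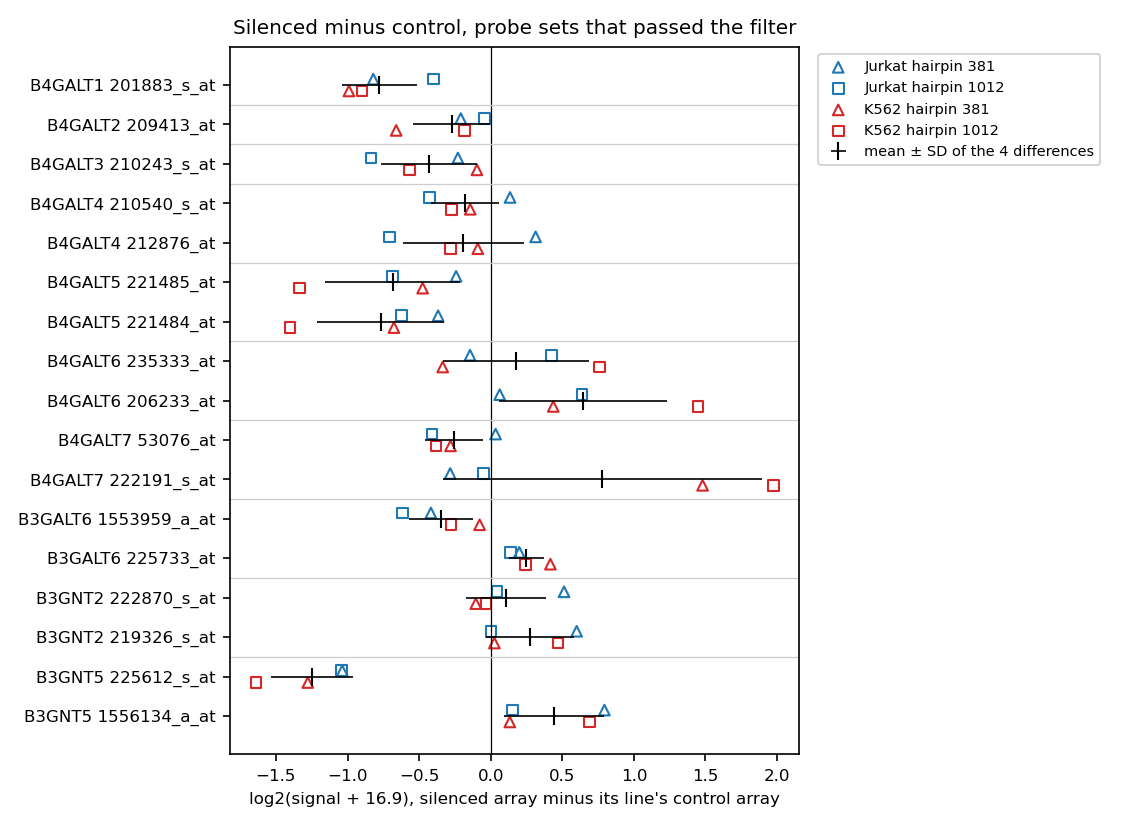
Difference of each silenced array to its line's control array, as log2(signal + 16.9), for the 17 probe sets that passed the filter; the black bar is the mean ± SD of the 4 differences. B4GALT5 and B3GNT5 225612_s_at lie to the left of 0 on all 4 arrays, and the second probe sets of B3GALT6, B3GNT5 and B4GALT7 lie apart from the first.

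Of the 17 probe sets that passed the filter, 7 lay below control on all 4 silenced arrays, where 14.3% of all 27306 probe sets did, and 4 lay above it on all 4, where 12.8% did. The 7 belong to 6 genes, B4GALT1, B4GALT2, B4GALT3, B4GALT5 with both probe sets, B3GALT6 and B3GNT5. The 4 belong to B4GALT6, B3GALT6, B3GNT2 and B3GNT5. At least 2-fold below control with both hairpins of both lines was 1 probe set, B3GNT5 225612_s_at, as were 0.0146% of all probe sets. Its Jurkat signals were in the range of unexpressed genes, and with a constant 4 times larger the Jurkat differences were -0.38 with each hairpin, so that the 2-fold mark was reached in K562 cells alone (-1.25 and -1.60). The median of the 17 mean differences was -0.19, against -0.01 over all 27306. Both silenced arrays were below control for 8 probe sets in Jurkat cells (33.3% of all) and for 11 in K562 cells (33.9%). At least 2-fold below with both hairpins was 1 probe set in Jurkat (0.205% of all) and 1 in K562 cells (0.454%), both times 225612_s_at (in Jurkat cells not with the larger constant), and at least 2-fold above were 0 in Jurkat (0.557% of all) and 1 in K562 cells (0.604%), B4GALT7 222191_s_at. Opposite signs in the lines, with both hairpins on one side in each, were seen for 2 (16.3% of all). The genes were chosen on these differences, so nothing is read from these shares.

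The lines themselves were then compared, K562 with Jurkat, a contrast the choice of genes did not use except that the dim B3GNT5 signal in Jurkat cells was already known. Of the 17 probe sets 4 had a mean above the filter in 1 line only, both of B3GNT5, B4GALT6 206233_at and B4GALT7 222191_s_at. Such a probe set could hardly pass the filter without a difference, so these 4 are described and their test is not read. B3GNT5 225612_s_at was brighter on all K562 arrays, by 6.17 on the log2 scale, and 1556134_a_at by 1.13, with Jurkat signals in the range of unexpressed genes. B4GALT6 206233_at was brighter on all Jurkat arrays, by a log2 value of -5.32, K562 minus Jurkat, with K562 signals in that range. These sizes depend on the added constant: they lay at 4.74, 0.70 and -4.08 with a constant 4 times larger and at 7.13, 1.35 and -6.01 with one 4 times smaller. B4GALT7 222191_s_at lay at -0.78, and over the silenced arrays alone at 0.17.

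Of the 13 probe sets above the filter in both lines 3 passed an adjusted p of 0.05 with limma, 1 higher in K562 and 2 higher in Jurkat cells. With the 4 described above, 3 of 17 were past that threshold and higher in K562 cells (23.0% of all 27306 probe sets) and 3 in Jurkat cells (25.5%), 6 in either direction (48.6%). No more is read from these counts. Likewise 4 of the 17 had all K562 arrays above all Jurkat arrays (29.8% of all) and 4 the reverse (31.5%). B4GALT6 was higher in Jurkat cells at 235333_at, by a log2 difference of -5.84 ± 0.32 (SE, limma adjusted p = 1.78e-06), K562 minus Jurkat, and -5.26 with the constant 4 times larger.

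B4GALT2 was higher in K562 cells by 1.01 ± 0.23 (limma adjusted p = 0.00717), and its 3 K562 signals lay above its 3 Jurkat signals. B3GALT6 was lower in K562 cells by -1.23 ± 0.18 at 225733_at (limma adjusted p = 6.29e-04), while 1553959_a_at differed by -0.04 ± 0.16 (adjusted p = 0.837). B4GALT5, by contrast with its paralog B4GALT6, differed by -0.38 ± 0.26 and 0.12 ± 0.24, with limma adjusted p values of 0.263 and 0.699, and both lines were bright. In the fit with the hairpin as a block, and without the K562 hairpin 381 array, 221485_at of B4GALT5 did pass, at -0.45 (adjusted p = 0.0208) and -0.60 (adjusted p = 0.0311). B4GALT1, B4GALT3, B4GALT4, B3GNT2 and B4GALT7 53076_at did not pass, with differences between -0.37 and 0.44.

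**Figure D3:**
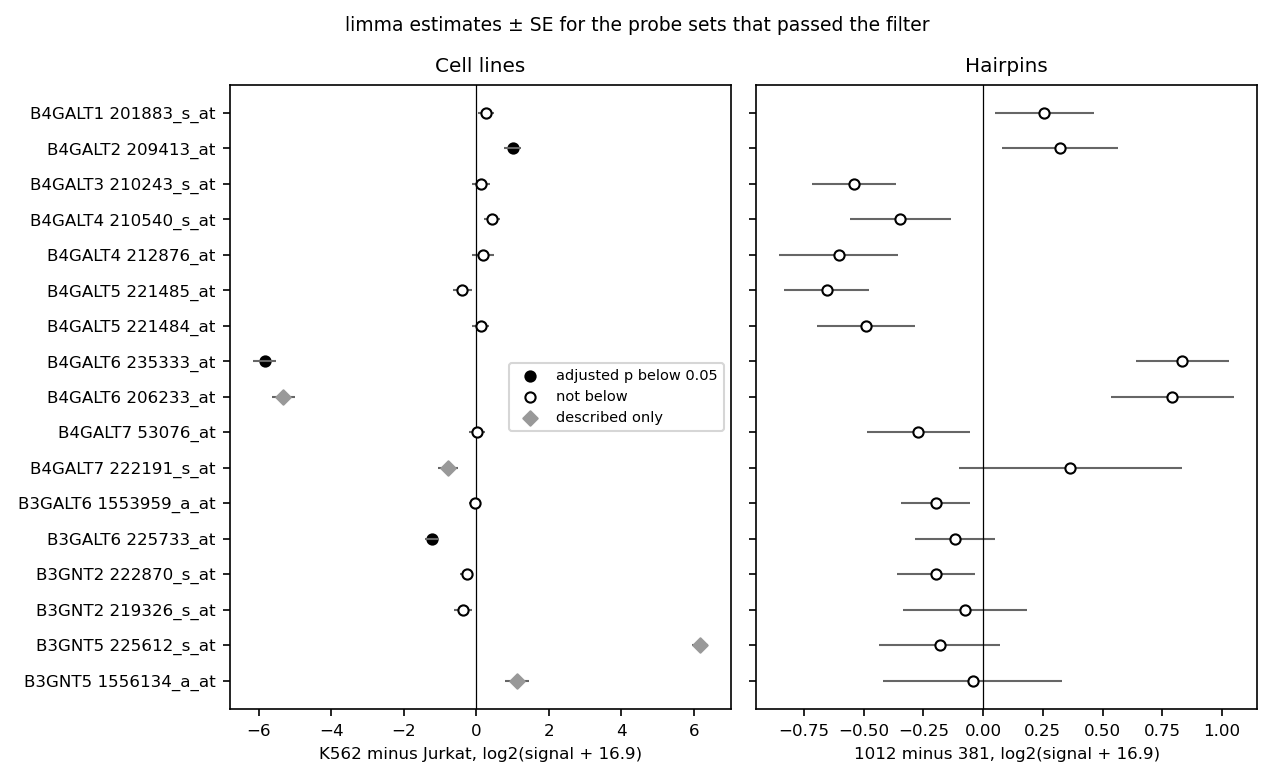
limma estimates ± SE on the log2(signal + 16.9) scale for the 17 probe sets, K562 minus Jurkat on the left and hairpin 1012 minus hairpin 381 on the right, with black points where the adjusted p was below 0.05 and grey diamonds for the 4 probe sets above the filter in 1 line only. B4GALT6 and B3GNT5 225612_s_at stand apart on the left, and none is black on the right, where B4GALT6 is the highest and B4GALT5 221485_at the lowest.

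The hairpins were compared with the cell line as a block, so that the lines stand in as replicates. Both hairpins carry the same number, shZFX#1, in the sample labels, while the series names shZFX#1 and shZFX#2; they are told apart here by the labels 381 and 1012 alone. None of the 17 probe sets passed with limma (0 of 17), while 0.443% of all probe sets were higher with 1012 and 0.326% higher with 381. Without adjustment 6 of the 17 had a p below 0.05, against 12.7% of all probe sets. Hairpin 1012 gave the lower signal in both lines for 9 of the 17 (29.7% of all) and the higher for 5 (28.2%). For B4GALT6 the value, 1012 minus 381, was 0.83 ± 0.19 (SE) at 235333_at (limma adjusted p = 0.0927) and 0.79 ± 0.26 at 206233_at (adjusted p = 0.232). For B4GALT5 it was -0.65 ± 0.18 at 221485_at (limma adjusted p = 0.152) and -0.49 ± 0.20 at 221484_at (adjusted p = 0.350). None of these 4 values passed, and B4GALT5 was not tested against B4GALT6. By line, B4GALT6 differed by 0.57 at both probe sets in Jurkat cells, and by 1.10 (235333_at) and 1.01 (206233_at) in K562 cells. The K562 signals behind these were dim, at 58.2 and 144 for 235333_at and 18.8 and 55.0 for 206233_at (381, 1012). The other 2 with an unadjusted p below 0.05 were B4GALT3 210243_s_at, at -0.54 ± 0.18 (limma adjusted p = 0.231), and B4GALT4 212876_at, at -0.61 ± 0.25 (adjusted p = 0.346). With a filter at the 75th percentile B4GALT6 235333_at passed (adjusted p = 0.0486).

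Genes around these enzymes were followed in 6 lists of 85 genes, of which 61 had a probe set that passed the filter, 110 in all. No probe set of these lists passed with limma in silenced against control cells, in Jurkat, in K562 or averaged over both. Of all 27306 probe sets 0% did. No ZFX probe set passed either, so these comparisons cannot show that the listed genes were unchanged. Without adjustment 2 of the 110 had a limma p below 0.05 in each of these 3 comparisons, against 3.62%, 4.81% and 5.87% of all. On all 4 arrays 12 of the 110 lay below control (14.3% of all probe sets did) and 13 above it (12.8% of all), and the median of their mean differences was -0.04.

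Among the other beta-1,3-galactosyl- and N-acetylglucosaminyltransferases (15 probe sets, median -0.068) B3GNT4 had the smallest p, with a log2 difference of -0.69 ± 0.31 (SE, limma adjusted p = 0.831). Its signals were dim, at 39.4 to 124, and it lay above control with hairpin 1012 in K562 cells (0.25). The core O-glycan synthase gene C1GALT1 followed at -0.35 ± 0.22, with -0.15 and 0.03 at its other 2 probe sets. Each gene is given by its probe set with the smallest p. In glycosphingolipid synthesis (14 probe sets, median -0.15) the sialyltransferase gene ST3GAL1 lay at -1.09 ± 0.31 (limma adjusted p = 0.814). Its signals were 324, 191 and 186 in Jurkat and 72.1, 27.1 and 6.90 in K562 cells for control, 381 and 1012. The silenced K562 signals lay in the range of unexpressed genes. UGCG, whose enzyme makes the glucosylceramide that B4GALT5 and B4GALT6 use, lay at -0.25 ± 0.17, with -0.17 and -0.08 at its others. Between the lines all 3 UGCG probe sets were higher in K562 cells, by 1.10 to 2.48 (limma adjusted p between 2.45e-05 and 0.00276), and were set beside B4GALT6 after their values were seen. Of the 110 probe sets of the 6 lists 29 passed as higher in K562 cells (23.0% of all probe sets) and 37 as higher in Jurkat cells (25.5%). In glycosphingolipid synthesis these counts were 9 and 2 of 14.

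In lactosamine branching and capping (24 probe sets, median -0.052) the bisecting enzyme gene MGAT3 lay at -0.66 ± 0.29 and the sialyltransferase gene ST3GAL4 at 0.45 ± 0.24. In glycosaminoglycan linker and chain synthesis (20 probe sets, median -0.028) the xylosyltransferase gene XYLT2, which starts the linker, lay at -0.80 ± 0.27 (limma adjusted p = 0.825) at 1 probe set and at -0.03 at the other, and the heparan sulfate polymerase gene EXT2 at -0.72 ± 0.32 and -0.25. The list of UDP-galactose supply and Golgi manganese (28 probe sets, median 0.044) also held genes for other nucleotide sugars, such as UGDH and UXS1. Its values are thus not those of UDP-galactose supply alone. In it the kinase gene GALK2 lay at 0.45 ± 0.22, with its other 2 probe sets at 0.12 and -0.40. The nucleotide sugar transporter gene SLC35D1 lay at -0.31 ± 0.18, with -0.39 and -0.13 at its others. Among the galectins (9 probe sets, median 0.076), which bind beta-galactosides, LGALS1 lay at 0.58 ± 0.29 and LGALS8 at 0.28 ± 0.17, the highest of its 6 probe sets, of which 3 lay below 0, down to -0.15.

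**Figure D4:**
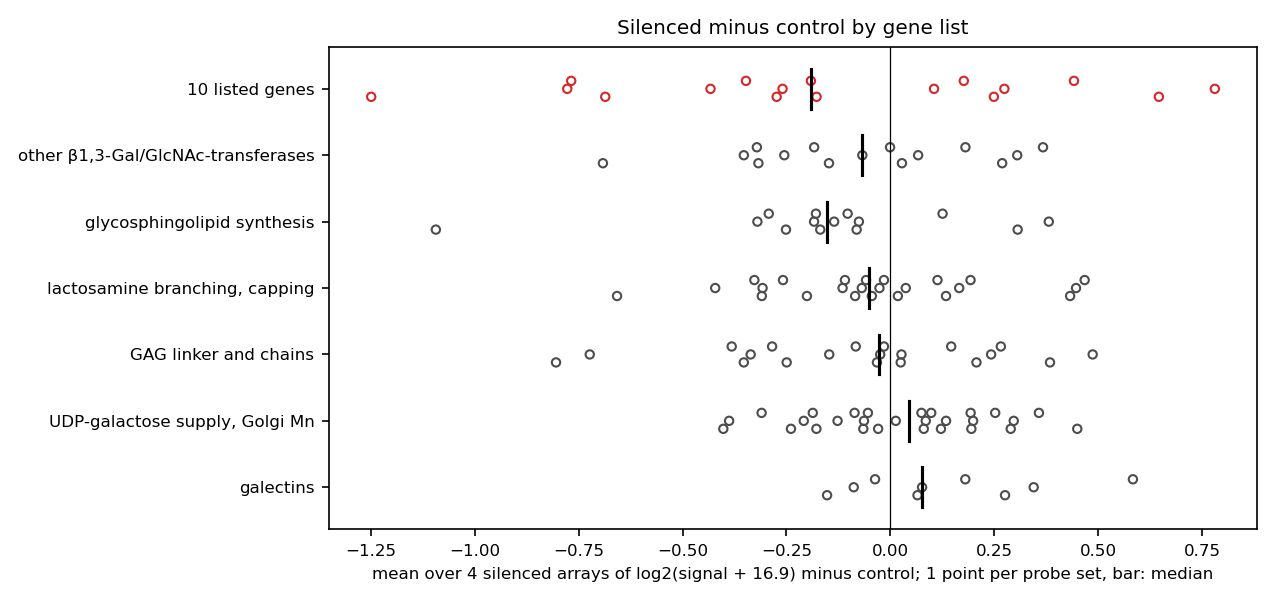
Mean over the 4 silenced arrays of log2(signal + 16.9) minus control, 1 point per probe set that passed the filter, with the median as a bar, for the 10 genes (red) and the 6 lists. The 10 genes span from -1.25 to 0.78, and the medians of the lists lie between -0.15 and 0.076.

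Over the 6 arrays the genes with the pattern most like that of B3GNT5 225612_s_at were LMNTD2, TAX1BP1 and OSBPL6 (Pearson's r of 0.999, 0.999 and 0.999), and those most like B4GALT1 201883_s_at were SIX5, EAF1 and GEMIN6 (r of 0.982, 0.982 and 0.979). These values describe 6 arrays of 2 lines that share 1 control each. They were picked as the highest among the kept probe sets with 1 symbol of another gene, 1 per gene. Pearson's r does not compare sizes, and B3GNT5 225612_s_at differed by 6.17 between the lines on the log2 scale. LMNTD2 read 45.8 to 80.7, near the range of unexpressed genes, and OSBPL6 read 50.5 to 67.0 in Jurkat cells, within it.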

How the data were processed

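Gene expression was measured on 6 one-colour arrays, each a pool of 3 replicates per the labels. The authors deposited 1 linear intensity per probe set, and the submitters' processing notes name MAS5; its settings were not given in the sources used here. These deposited values had the same 2% trimmed mean on every array. Detection calls were not used here. Symbols come from the platform annotation (41097 with 1 symbol, 1801 with several, 11777 with none), and probe sets with several symbols were not named.

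From these, log2(signal + 16.9) was computed, the constant being the 25th percentile of all values; a fold on this scale understates the change of dim genes. After removal of 62 array controls, the 27306 probe sets with a mean log2 value above the median were tested. limma 3.58.1 in R 4.3.3 was fitted to all kept probe sets with an intensity trend, two-sided, with Benjamini-Hochberg adjustment over all of them: 4 groups (control and silenced per line, 2 residual degrees of freedom) for the lines, control and silenced weighted equally, and for silencing of the gene lists; line and arm (control, 381, 1012) for the hairpins. In the fit of 4 groups the spread comes from the arrays with different hairpins, and controls were assumed to vary alike. In the fit of line and arm it comes from how the arms differ between the lines, controls included. The number of arrays limits the precision. All probe sets of the 10 genes are reported; from each list the 2 genes with the smallest p in the average silencing comparison are named, and for like patterns the 3 genes with the highest r. The members and lists were chosen with earlier results of these data known. Alternatives were the constant, filter, normalization, trend, hairpin block and leaving out arrays.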

Additional observations from a re-analysis of the deposited data

Results flagged for a closer look

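The probe set 222191_s_at of B4GALT7 lay below control on both silenced Jurkat arrays and above it on both silenced K562 arrays, and the mean silencing differences of the lines were 1.89 apart on the log2 scale (K562 minus Jurkat). The difference between the lines was not tested. The K562 control signal of 19.0 was the lowest of the 6. The other B4GALT7 probe set, 53076_at, did not show these opposite signs.

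The probe set 222870_s_at of B3GNT2 lay above control on both silenced Jurkat arrays and below it on both silenced K562 arrays, -0.35 apart (K562 minus Jurkat), which was not tested either. Its differences were 0.51 and 0.04 in Jurkat and -0.10 and -0.03 in K562 cells. Opposite signs of this kind were seen for 2 of the 17 probe sets and for 16.3% of all probe sets.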

How the results depend on the processing

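With a filter at the 75th percentile 2 of the 10 genes' probe sets passed between the lines instead of 6 (0 higher in K562 cells instead of 3, and 7054 of all probe sets instead of 13267), since fewer were tested, and 1 passed between the hairpins instead of 0 (341 of all probe sets instead of 210). Without a filter, 11 of 28 probe sets instead of 7 of 17 lay below control on all 4 silenced arrays. Between the hairpins 126 of all probe sets passed without a filter, 130 with a constant 4 times smaller and 0 without an intensity trend. Leaving out 1 array gave 38 to 270 of all probe sets between the hairpins (38 without Jurkat 381, 72 without K562 381, 94 without K562 1012), 0 to 4 for silencing in K562 cells (3 without K562 381, 4 without K562 1012) and 0 to 9 averaged over the lines (9 without K562 381); the count below control on all remaining arrays was 7 to 10. In each of these no probe set of the gene lists passed. B4GALT7 222191_s_at was above the filter in 1 line only, so its test between the lines is not read here either. Its line difference was -1.004 with a constant 4 times smaller, -0.78 without a trend and -0.90 without K562 1012. Over the silenced arrays alone it was 0.17. The causes were not tested.

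With the hairpin number as a replicate block, 9 of all probe sets passed for silencing averaged over the lines instead of 0, and between the lines the 6 probe sets of the 10 genes that passed were joined by B4GALT5 221485_at. The differences between the hairpins correlated across the lines with r = 0.181 over 27306 probe sets; the numbers name hairpins and do not pair cultures. No silencing value of a probe set that lay on one side of control on all 4 arrays changed sign under any alternative run. Signals below 67.7, the 95th percentile of the 26 tissue-restricted probe sets, were taken as within the range of unexpressed genes. Detection itself was not tested.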
